A study of Mus musculus with 338 samples.

Results

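Pancreatic islets of 129S2/SvPas mice kept on regular chow (RC) were compared at day 90 and at day 2, in 11 and 5 mice. These 16 libraries are part of a series of 338 islet RNA libraries, 1 per mouse, from 6 inbred strains fed RC or a diet high in fat and sugar (HFHS) and taken at 2, 10, 30 or 90 days. The day 90 group holds every 129S2/SvPas mouse labelled RC at that day (6RC41 to 6RC44, 6RC46 to 6RC48, 6RC81, 6RC82, 6RC87 and 6RC89). The day 2 group holds 6RC1, 6RC3, 6RC4, 6RC75 and 6RC78. The other 3 mice labelled 129S2/SvPas, RC and day 2 (6RC2, 6RC5 and 6RC6) were left out, because their strain genes matched C57Bl/6J. No genotype other than the inbred strain, no age and no sex is given in the labels, and no treatment other than the diet. The labels tie each library to its own mouse, so replicates here are mice, and the spread between mice holds that of islet picking and library preparation too.

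The day 2 mice were selected on measured values, the levels of strain genes, and these are given as a description. Over 26 genes that separate 129S2/SvPas from C57Bl/6J in the day 10 and day 30 libraries, the 16 libraries used lay closer to C57Bl/6J at 0 to 2 genes. The libraries left out lay closer to C57Bl/6J at 23 genes in 6RC2, 24 in 6RC5 and 26 in 6RC6. Of the strain genes, 24 were tested between day 90 and day 2 and 5 passed the threshold, from which nothing is read. The libraries left out also differed in other ways: the 2 insulin genes took 0.246, 1.09 and 2.45 percent of their reads, against 17.7 to 30.6 percent in the 16 libraries used. Their counts fell with the GC content of the gene by 3.02, 1.83 and 1.37 on the log2 scale per 10 GC points, against slopes of -0.0655 to 0.215 in the 16 libraries.

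Islets are small endocrine organs made mostly of insulin-secreting beta cells, with glucagon-secreting alpha cells, somatostatin-secreting delta cells and pancreatic polypeptide cells around them, and with capillaries, nerves, resident macrophages and mesenchymal cells between them. In rodents beta cells divide often in early life and seldom in adults, and the genes of DNA replication and mitosis follow that rate. Isolation of islets by digestion also carries over some acinar tissue and induces stress genes. Because the whole islet was measured, fewer cells of a type and less RNA per cell cannot be told apart.

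The promoters of 6 genes are shown first, since late cell cycle genes and stress genes, to which they belong, take up much of the description further on. Each is the stretch from 250 bases before to 50 after the start of the gene in RefSeq, build GRCm38.p6, written 5′ to 3′ on the strand of the gene. Capitals mark the CHR (TTTGAA) and the CCAAT box (CCAAT) in Top2a, Ube2c and Mki67, 2 motifs carried by many genes of the late cell cycle, searched on both strands. In Hspa1b they mark the heat shock element GAANNTTC, the recognition letters of heat shock factors. In Chac1 and Trib3 they mark the C/EBP-ATF element TGATGNAA, bound by ATF4 and CHOP in the stress response. Top2a lies at chr11:99024140-99024439 on the minus strand, Ube2c at chr2:164769679-164769978 on the plus strand and Mki67 at chr7:135716330-135716629 on the minus strand. Hspa1b lies at chr17:34959189-34959488 on the minus strand, Chac1 at chr2:119350992-119351291 on the plus strand and Trib3 at chr2:152344011-152344310 on the minus strand.
Top2a: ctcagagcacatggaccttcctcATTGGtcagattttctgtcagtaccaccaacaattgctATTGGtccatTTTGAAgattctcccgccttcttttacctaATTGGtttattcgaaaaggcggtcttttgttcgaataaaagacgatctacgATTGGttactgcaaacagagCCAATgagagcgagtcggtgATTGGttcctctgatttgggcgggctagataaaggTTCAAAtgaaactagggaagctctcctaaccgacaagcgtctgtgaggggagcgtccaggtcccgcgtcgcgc
Ube2c: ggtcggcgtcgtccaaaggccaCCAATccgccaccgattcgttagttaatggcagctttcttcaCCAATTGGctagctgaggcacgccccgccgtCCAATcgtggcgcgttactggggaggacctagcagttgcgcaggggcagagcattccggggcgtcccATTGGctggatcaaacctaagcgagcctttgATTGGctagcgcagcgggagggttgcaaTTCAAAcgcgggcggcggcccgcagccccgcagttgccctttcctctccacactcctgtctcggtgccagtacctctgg
Mki67: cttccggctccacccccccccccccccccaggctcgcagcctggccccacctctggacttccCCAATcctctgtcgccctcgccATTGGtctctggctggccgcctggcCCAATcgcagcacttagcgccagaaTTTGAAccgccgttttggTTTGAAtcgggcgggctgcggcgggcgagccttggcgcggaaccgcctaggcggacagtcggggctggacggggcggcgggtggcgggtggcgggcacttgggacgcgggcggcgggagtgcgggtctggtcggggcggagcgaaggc
Hspa1b: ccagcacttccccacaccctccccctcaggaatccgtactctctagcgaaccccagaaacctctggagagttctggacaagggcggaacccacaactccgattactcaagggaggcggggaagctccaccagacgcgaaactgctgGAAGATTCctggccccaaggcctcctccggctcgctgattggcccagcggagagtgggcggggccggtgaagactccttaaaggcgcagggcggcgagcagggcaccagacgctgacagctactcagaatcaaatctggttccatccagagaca
Chac1: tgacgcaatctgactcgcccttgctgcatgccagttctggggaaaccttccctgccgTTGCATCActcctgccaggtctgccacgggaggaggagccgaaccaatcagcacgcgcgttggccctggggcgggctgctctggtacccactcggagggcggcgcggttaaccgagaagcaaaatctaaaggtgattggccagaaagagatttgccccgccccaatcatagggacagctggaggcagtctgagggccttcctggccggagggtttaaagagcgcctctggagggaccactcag
Trib3: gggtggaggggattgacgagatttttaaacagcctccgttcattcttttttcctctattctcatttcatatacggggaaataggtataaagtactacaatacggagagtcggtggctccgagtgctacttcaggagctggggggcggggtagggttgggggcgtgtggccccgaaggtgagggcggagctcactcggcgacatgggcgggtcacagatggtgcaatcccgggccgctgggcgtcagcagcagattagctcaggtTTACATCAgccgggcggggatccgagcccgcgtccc

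Promoters of 29 of the 36 genes of the cell cycle list were in the RefSeq table. Of these, 16 (55.2%) held a CHR on either strand, against 17.9% of all 32851 promoters and 11.6% of the 10482 promoters of tested genes. A CCAAT box stood in 25 of the 29 (86.2%), against 37.4% of all promoters and 38.2% of those of tested genes. It was also frequent in the endoplasmic reticulum (ER) stress list, at 21 of 23 promoters (91.3%), and stood in 7 of 13 (53.8%) of the immediate early and isolation stress list. The heat shock element stood in 4 of 13 promoters (30.8%) of the immediate early and isolation stress list, those of Jun, Hspa1a, Hspa1b and Hspb1, against 7.86% of all promoters. The C/EBP-ATF element stood in 4 of 23 promoters (17.4%) of the ER stress list, those of Herpud1, Atf3, Trib3 and Chac1, against 3.97% of all promoters. Atf3 and Jun did not pass the test between the days, so a match did not go with a change in each of these genes. These matches describe the letters in the window and say nothing of binding.

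The reads assigned to genes numbered 20494752 to 31901929 per library. Of 14818 genes tested between day 90 and day 2, 553 (3.73%) were higher at day 90 and 842 (5.68%) were lower at an adjusted p under 0.05. These come from edgeR's quasi-likelihood test with Benjamini-Hochberg adjustment over all genes tested, and 3499 genes had an unadjusted p under 0.05. The median log2 fold change of all tested genes was 0.03. The number of genes called was 750 without the day 2 mouse 6RC78, 800 without the day 2 mouse 6RC75 and 1956 without the day 90 mouse 6RC43. On the first principal component of the 16 libraries, which took 27.5% of the variance and had Reg3a and Pax5 among its largest loadings, the day 90 mice 6RC43, 6RC42 and 6RC41 lay farthest out. Their summed lymphocyte markers were 313, 495 and 209 CPM (counts per gene scaled to a common total of assigned reads), against 10.8 to 127.3 CPM in the other 8 day 90 libraries and 10.5 to 110 CPM at day 2. The second component (20.7% of the variance) separated the days, with 4.2 to 33.5 at day 90 and -47.6 to -17.4 at day 2. The description label of the day 90 mouse 6RC89 holds only an editing mark. It stood apart from the other day 90 mice in summed stellate markers (1380 CPM, against 365 to 572 CPM in the others) and had the lowest summed alpha cell markers (13800 CPM). Leaving it out gave 1607 genes. Taken as 2 sets by mouse number, which the labels do not tie to a batch, mice numbered under 75 gave 449 genes and those numbered 75 or higher gave 174. The higher set holds only 6RC75 and 6RC78 of day 2 and 6RC81, 6RC82, 6RC87 and 6RC89 of day 90. Each set has fewer mice than the whole comparison and so less power to call a gene. Of the genes called in the authors' normalized values, 29.2% were higher at day 90, against 39.6% in the counts.

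Genes of DNA replication and mitosis were lower at day 90. Of 36 members of the cell cycle list tested, 33 fell and none rose, with a median log2 fold change of -1.60 for the list, while Ccne1, Ccne2 and Tk1 did not pass. The share of all tested genes that fell was 5.68%. The summed level of the list was 90 to 226 CPM at day 90 and 302 to 353 CPM at day 2. The groups did not overlap. Leaving out 1 mouse at a time gave 31 to 34 members lower, and leaving out 6RC41, 6RC42 and 6RC43 together gave 35. Within mice numbered under 75 the count was 22, within those numbered 75 or higher it was 5, and with the mean stellate level of each library as a covariate it was 13.

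Top2a, the topoisomerase that untangles chromosomes before they separate, ran from 2.15 to 16.9 CPM in day 90 mice (median 7.24). In the day 2 mice 6RC1, 6RC3, 6RC4, 6RC75 and 6RC78 it was 27.8, 29.3, 38.7, 31 and 33.4 CPM, and no day 90 mouse reached the lowest of these. The log2 fold change was -2.13 (SE 0.31, edgeR adjusted p = 0.000408). Mki67, the coat protein of mitotic chromosomes used as a proliferation marker, ran from 2.97 to 21.2 CPM at day 90 (median 7.75), against 24.5, 23.5, 33.8, 38.2 and 34.7 CPM at day 2. The groups did not overlap, and its log2 fold change was -1.88 (SE 0.32, edgeR adjusted p = 0.00139). For both genes the highest day 90 value was that of 6RC42, the library with the highest lymphocyte markers, and the lowest that of 6RC43.

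Foxm1, the transcription factor that drives the mitotic program, ran from 3.25 to 6.88 CPM at day 90 (median 5.23), against 11.2, 9.53, 11.4, 10.8 and 11 CPM at day 2. The day 2 mice lay close together and above each day 90 mouse, and the log2 fold change was -1.10 (SE 0.12, edgeR adjusted p = 4.76e-05). Prc1, which bundles the microtubules of the dividing spindle, ran from 1.53 to 4.98 CPM at day 90 (median 2.69), against 9.69, 10.0, 9.52, 8.80 and 9.60 CPM at day 2. The log2 fold change was -1.72 (SE 0.19, edgeR adjusted p = 5.34e-05). Ube2c, the ubiquitin-conjugating enzyme of the anaphase-promoting complex, ran from 0.389 to 2.06 CPM at day 90 (median 1.01), against 4.97, 4.67, 5.31, 3.49 and 3.32 CPM at day 2. It fell by 2.12 on the log2 scale (SE 0.27). Neither gene's groups overlapped.

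The remaining named members of the list fell without overlap as well. Ccna2, the cyclin of S phase and G2, had a log2 fold change of -1.42 (SE 0.17). That of Cenpf, a kinetochore protein, was -2.10 (SE 0.28), that of the spindle protein Ckap2l -2.0 (SE 0.26) and that of Kif20a, a kinesin of cytokinesis, -0.92 (SE 0.11). Genes of the replicative helicase had log2 fold changes from -0.53 in Mcm4 to -1.61 in Mcm6, and Pcna, the sliding clamp of DNA polymerases, had -0.44. Tcf19, a gene known for its expression at the start of S phase and outside the list, ran from 3.48 to 5.20 CPM at day 90 (median 4.10), against 12.4, 10.6, 10.6, 9.85 and 13.1 CPM at day 2. Its log2 fold change was -1.44 (SE 0.12, edgeR adjusted p = 3.12e-06), again without overlap.

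**Figure D1:**
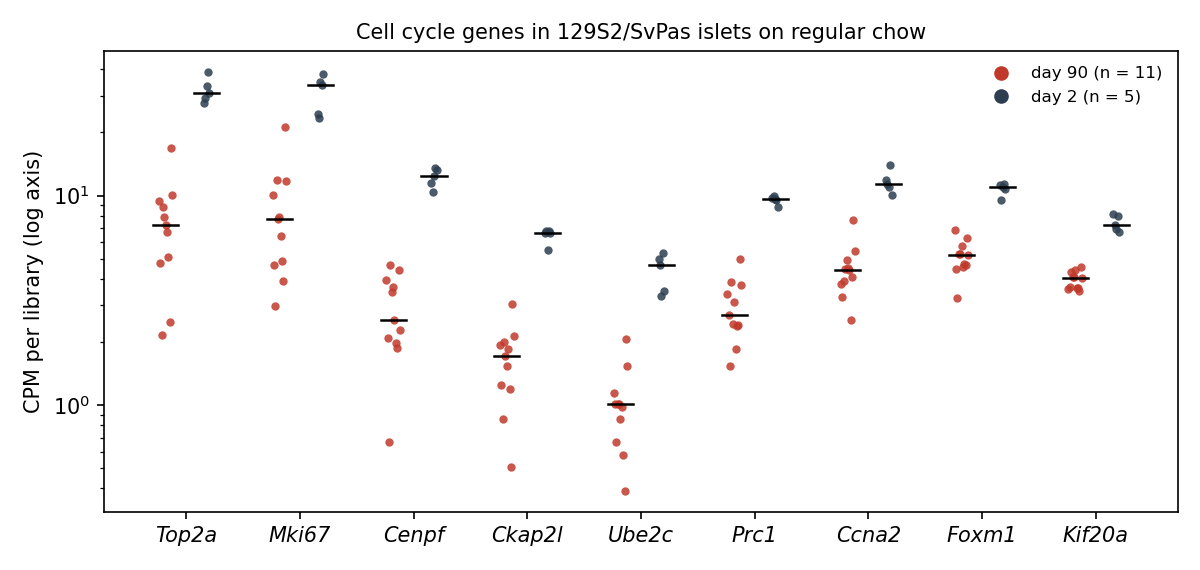
CPM (log axis) of 9 cell cycle genes in each library, with day 90 (n = 11) left of day 2 (n = 5) for every gene; each point is 1 mouse. For each gene the 11 day 90 points lie below the 5 day 2 points, with Top2a at 2.15 to 16.9 CPM against 27.8 to 38.7 CPM.

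Upstream regulators of the cycle were mostly not called. Of 19 genes of cell cycle entry (D cyclins, their kinases, the inhibitors of these kinases and Polycomb genes), 1 rose and 2 fell, with a median log2 fold change of -0.11. Of all tested genes 3.73% rose and 5.68% fell, so these counts do not set the list apart. Bmi1, a Polycomb protein that represses the Ink4a/Arf locus, ran from 70.0 to 91.3 CPM at day 90 (median 84.4), against 56.7, 51.2, 57.6, 53.9 and 60.0 CPM at day 2. The groups did not overlap, and the log2 fold change was 0.56 (SE 0.06, edgeR adjusted p = 3.65e-05). E2f1, the transcription factor of S phase entry, ran from 5.98 to 15.6 CPM at day 90 (median 10.5), against 18.8, 19.4, 17.4, 17.3 and 24.2 CPM at day 2. It fell by 0.88 on the log2 scale (SE 0.16, edgeR adjusted p = 0.00169). Ezh2, the Polycomb methyltransferase, had a log2 fold change of -0.61 (SE 0.18, edgeR adjusted p = 0.0431), a call lost in 12 of the 16 fits that left out 1 mouse (adjusted p up to 0.111, without 6RC78). Cdkn2a, which encodes the inhibitor p16 and Arf, had 0.506 to 2.41 CPM at day 90 and 0.320 to 0.8 CPM at day 2, with overlap (log2 fold change 0.84, SE 0.37, edgeR adjusted p = 0.178). Ccnd1, Ccnd2, Ccnd3 and Cdk4 did not pass, with log2 fold changes of -0.21, -0.21, 0.16 and 0.14.

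Matrix genes of mesenchymal cells formed the other large group that was lower at day 90. Of 23 genes of the stellate cell, fibroblast and matrix list, 17 fell and none rose, with a median of -1.68. The list's summed level was 365 to 1380 CPM at day 90 (median 531), against 1190, 818, 1020, 2650 and 2520 CPM in the day 2 mice. At 2650 and 2520 CPM, 6RC75 and 6RC78 stood above the other 3 day 2 mice, and without either of them 12 members fell. These are also the day 2 mice numbered 75 or higher, so the stellate level at day 2 and the mouse number cannot be told apart. Of the day 90 mice, 6RC89 alone lay within the day 2 range, and 19 members fell without it. Within mice numbered under 75 it was 11 members, and within those numbered 75 or higher it was 9. Timp1, an inhibitor of matrix proteases, had the highest fold change of the list (2.65) and did not pass (adjusted p = 0.243).

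Eln, the elastin gene, had the largest fall among genes with a mean of at least 5 CPM. It ran from 3.03 to 8.91 CPM at day 90 (median 6.55), against 32.9, 17.9, 21.6, 74.0 and 85.7 CPM at day 2, with a log2 fold change of -2.92 (SE 0.32, edgeR adjusted p = 4.70e-05). No day 90 mouse reached the day 2 range, 6RC89 included. Fbn1, which encodes the microfibril protein fibrillin-1, ran from 5.24 to 17.1 CPM at day 90 (median 9.62), against 22.0, 21.1, 24.6, 113.1 and 82.2 CPM at day 2. It fell by 2.32 on the log2 scale (SE 0.32, edgeR adjusted p = 0.000278). Sparc, a collagen-binding matricellular protein, ran from 128.1 to 267 CPM at day 90 (median 167), against 375, 296, 337, 531 and 517 CPM at day 2. Its log2 fold change was -1.26 (SE 0.15, edgeR adjusted p = 7.78e-05), and neither gene overlapped between the days.

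Genes of fibrillar collagens and of type VI collagen fell too, with 1 day 90 mouse inside the day 2 range. Col5a1 had a log2 fold change of -2.18 (SE 0.39), and the type VI collagen genes Col6a1, Col6a2 and Col6a3 had -1.73, -1.79 and -1.87. Col1a1 ran from 9.90 to 130.7 CPM at day 90 (median 25.4), against 70.4, 40.5, 65.3, 213 and 211 CPM at day 2, and its highest day 90 value was that of 6RC89. Its log2 fold change of -1.95 (SE 0.48, edgeR adjusted p = 0.0161) lost its call without 6RC78 (0.0737) or 6RC75 (0.0707). Col3a1, at -1.92 (SE 0.46), did so as well, with adjusted p = 0.0593 without 6RC78 and 0.0616 without 6RC75. Mmp2, a gelatinase that cuts collagen fragments, had -2.07 (SE 0.34), and the microfibril gene Mfap4 had -2.02 (SE 0.33). Fbln1 and Htra3, a matrix glycoprotein and a secreted serine protease, had -1.77 (SE 0.31) and -1.79 (SE 0.32).

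Genes of the basement membrane, the sheet that endothelial cells lay down around islet capillaries, fell as well. Of 11 tested, 8 fell, with a median of -0.70, though 4 fell without 6RC75 and 5 without 6RC78. It was 3 within mice numbered under 75 and 6 within those numbered 75 or higher, and edgeR called 0 with the mean stellate level as a covariate (2 lower at an unadjusted p under 0.05). Col4a1, a chain of type IV collagen, ran from 90.6 to 238 CPM at day 90 (median 184), against 322, 274, 364, 470 and 412 CPM at day 2. The groups did not overlap, and the log2 fold change was -1.09 (SE 0.15, edgeR adjusted p = 0.000253). Col4a2 had -1.0 (SE 0.16), the linker Nid1 -1.01 (SE 0.16) and the laminin chain Lamb1 -0.71 (SE 0.14). Lama4 and Lamc1, other laminin chains, had -0.70 and -0.61. The call of Lama4 was lost without 6RC75 (adjusted p = 0.0621), and that of Lamc1 without 6RC75 (0.0824) or 6RC78 (0.0655).

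Most endothelial markers were not called. Their summed level was 666 to 975 CPM at day 90 (median 845) and 731 to 1000 CPM at day 2 (median 831). Of 12 genes, Cd34 and Pecam1 fell and none rose, while 5.68% of all tested genes fell. Cd34, a sialomucin of vessels and of some mesenchymal cells, ran from 25.2 to 35.4 CPM at day 90 (median 28.7), against 43, 39.1, 41.2, 56.8 and 52.7 CPM at day 2 (log2 fold change -0.65, SE 0.10, edgeR adjusted p = 0.000801). Pecam1, a junction protein of endothelium, had -0.29 (SE 0.09, edgeR adjusted p = 0.0417), a call lost in 9 of the 16 fits that left out 1 mouse (adjusted p up to 0.141, without 6RC75). Kdr, Flt1 and Plvap did not pass, with 0.14, 0.17 and 0.06.

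Growth factor genes were lower in part. Of 19 genes of the list of growth factor receptors and IGF binding proteins, 6 fell and 1 rose, but 1 fell and none rose without 6RC75 or without 6RC78. Igfbp7, a secreted IGF-binding protein, was the member that stayed lower in each of these fits. It ran from 193 to 333 CPM at day 90 (median 213), against 334, 314, 319, 332 and 320 CPM at day 2, and 6RC43 was the day 90 mouse that reached the day 2 range (log2 fold change -0.53, SE 0.12, edgeR adjusted p = 0.0109). Igf1, Pdgfra, Pdgfrb, Igfbp6 and Fgfr1 had -1.39, -1.56, -0.69, -1.57 and -0.33, and each lost its call without 6RC75 or without 6RC78, with adjusted p from 0.052 to 0.215. Cish, an inhibitor of cytokine receptor signalling that growth hormone and prolactin induce, ran from 7.89 to 100 CPM at day 90 (median 50.3), against 13.9, 12.1, 10.2, 8.94 and 14.1 CPM at day 2. Its log2 fold change was 1.82 (SE 0.51, edgeR adjusted p = 0.0305), and leaving out any one of the day 2 mice ended the call (0.0567 to 0.0937).

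Of 14 imprinted and fetal growth genes tested, 1 rose and 4 fell, against 3.73% and 5.68% of all tested genes. Without 6RC75 or without 6RC78, 1 rose and 2 fell. With the mean stellate level as a covariate edgeR called 0, with 4 lower at an unadjusted p under 0.05. Meg3, a long noncoding RNA made from the maternal chromosome, ran from 312 to 873 CPM at day 90 (median 583), against 303, 308, 301, 350 and 247 CPM at day 2. Its log2 fold change was 0.99 (SE 0.22, edgeR adjusted p = 0.00853), and 6RC89 was the lowest day 90 mouse. Igf2bp2, an RNA-binding protein of the fetal growth program, ran from 0.940 to 6.24 CPM at day 90 (median 3.14), against 9.03, 8.74, 10.3, 10.1 and 7.68 CPM at day 2, without overlap (log2 fold change -1.37, SE 0.31, edgeR adjusted p = 0.00974). Gpc3, a growth-restraining glypican, fell by 1.26 on the log2 scale (SE 0.22). Grb10 and Nnat fell by 0.44 and 0.78, but without 6RC4, 6RC75 or 6RC78 neither passed (adjusted p from 0.0526 to 0.111). Igf2 did not pass, at 7.37 to 19.1 CPM at day 90 and 8.17 to 15.7 CPM at day 2. Kcnq1ot1, an imprinted noncoding RNA antisense to Kcnq1 and outside the list, had a log2 fold change of 1.51 (SE 0.32, edgeR adjusted p = 0.00684). The days overlapped, with 8.65 CPM in 6RC89 of day 90 and 10.7 CPM in 6RC75 of day 2. Within mice numbered 75 or higher Kcnq1ot1 had 0.309 and did not pass (edgeR adjusted p = 0.546). The libraries keep no strand, so its reads cannot be told from those of Kcnq1.

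Alpha cell genes were lower at day 90 in part. Of 12 tested, 4 fell, Irx1 and Pou3f4 among them, against 5.68% of all tested genes. None rose, the median was -0.62 and every member lay below 0. The summed level was 13800 to 53900 CPM at day 90 (median 39600), against 66200, 64700, 70300, 51600 and 52900 CPM at day 2, so that the day 90 mice 6RC41 and 6RC43 lay within the day 2 range. Irx1, an Iroquois homeobox transcription factor, ran from 9.81 to 29.3 CPM at day 90 (median 22.3), against 37.1, 36, 39.5, 29.6 and 31.8 CPM at day 2. The groups did not overlap, though the highest day 90 mouse, 6RC43, lay just under 6RC75 of day 2, and the log2 fold change was -0.73 (SE 0.20, edgeR adjusted p = 0.0257).

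Both named calls depended on single mice. Irx1 lost its call without 6RC1 (0.0693), 6RC3 (0.061) or 6RC4 (0.0738). Pou3f4 had -1.24 and lost its call without 6RC1 (0.0569), 6RC4 (0.0838), 6RC75 (0.0756) or 6RC78 (0.0736). Without 6RC1 or without 6RC4, 2 members of the list fell. Without 6RC41, 6RC42, 6RC43 and 6RC89 together 8 fell, beside 13% of all genes in that fit. Limma voom called 11 of 12 lower, beside 15.2% of all genes. Within mice numbered under 75, 4 of 11 fell. Within those numbered 75 or higher edgeR called 0 of 12, with 5 lower at an unadjusted p under 0.05. Gcg, which encodes glucagon, ran from 12700 to 51300 CPM at day 90 (median 37400), against 62900, 61500, 67300, 49000 and 50400 CPM at day 2. It overlapped between the days and did not pass (log2 fold change -0.71, SE 0.25, edgeR adjusted p = 0.0836), though it passed without 6RC43 (0.0384) or without 6RC89 (0.0439). It also passed with DESeq2 (0.0364), with limma voom (0.00201) and with the spread shared over all 129S2/SvPas groups (0.00322) or over all 48 groups (0.000175), so its call depends on the method.

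Few beta cell genes were called. Of 25 tested, edgeR called Nnat alone, as lower, and the median was -0.04. The share of all tested genes called lower was 5.68%. DESeq2 called 1 lower, limma voom 1 higher and 4 lower, and the fit without 6RC41, 6RC42, 6RC43 and 6RC89 called 3 higher and 2 lower. Ins1 ran from 69600 to 128000 CPM at day 90 (median 78300), against 85400, 95200, 78000, 72900 and 79000 CPM at day 2 (log2 fold change 0.07, SE 0.17, edgeR adjusted p = 0.854). Ins2 ran from 107000 to 178000 CPM at day 90 (median 130000), against 144000, 163000, 128000, 114000 and 121000 CPM at day 2 (log2 fold change -0.03, SE 0.16, edgeR adjusted p = 0.941). The day 2 values of both genes lay within the day 90 range, and with these SEs a modest change in either direction was not detectable. The sign of both fold changes turned with single mice or settings, so neither gives a direction. The 2 insulin genes are close copies, and reads that fit both could be split between them. Iapp, which encodes islet amyloid polypeptide, had 0.27 (SE 0.14, edgeR adjusted p = 0.288). Mafa and Ucn3, a transcription factor and a peptide of mature beta cells, had 0.13 (SE 0.21) and 0.07 (SE 0.12), and their signs too turned with the setting.

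The delta and PP cell genes gave no edgeR call among 9 tested, with a median of -0.23. At an unadjusted p under 0.05 there was 1 gene, and DESeq2 and limma voom called 1 each. Sst, which encodes somatostatin, had 1530 to 8200 CPM at day 90 and 5150 to 6510 CPM at day 2 (log2 fold change -0.23, SE 0.29). Ppy, which encodes pancreatic polypeptide, had 843 to 6700 CPM at day 90 and 1900 to 4340 CPM at day 2 (-0.15, SE 0.40). In both, the day 90 mice spread over a wider range than the day 2 mice. Among 19 genes that are low in mature beta cells, Pdgfra, Oat, Sox9, Mylk and Smad3 fell, and none of the 19 did without 6RC75 or without 6RC78. Aldh1a3, a marker of beta cell dedifferentiation, had 1.56 and did not pass (edgeR adjusted p = 0.162).

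**Figure D2:**
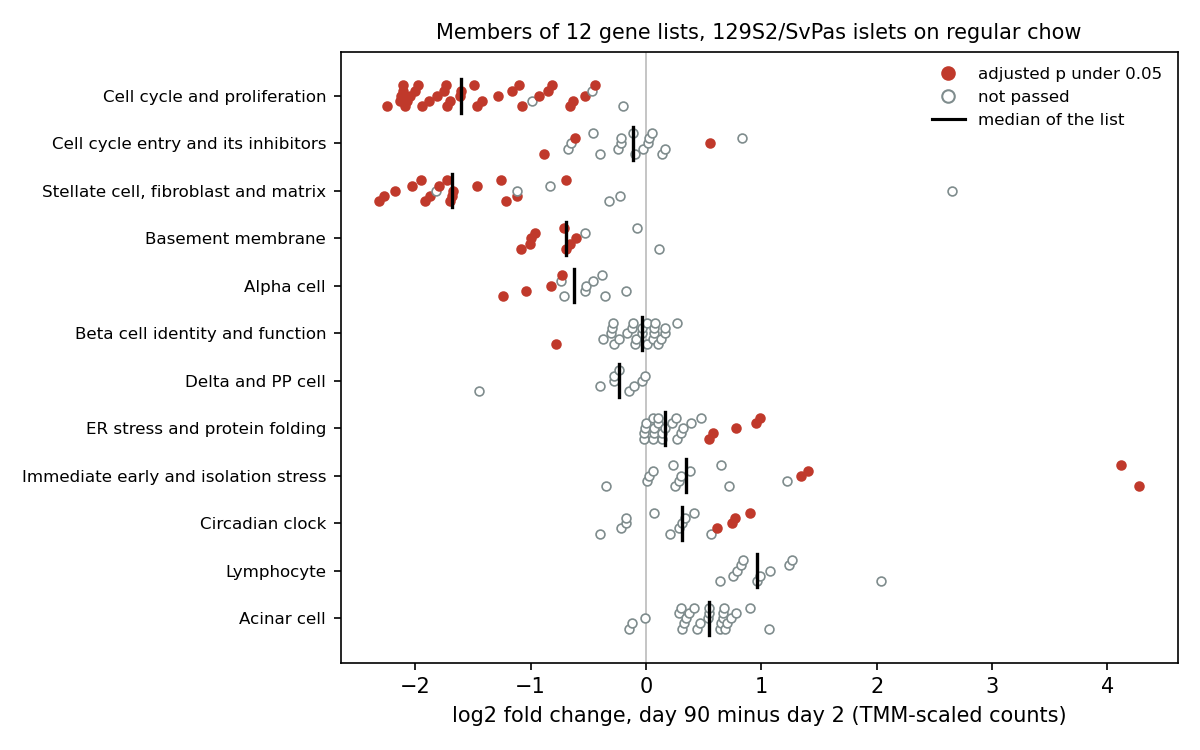
log2 fold change (day 90 minus day 2, TMM-scaled counts) of each tested member of 12 gene lists; filled points passed an adjusted p under 0.05, open points did not, and the black bar is the median of the list. The cell cycle list (median -1.60) and the stellate list (median -1.68) lie to the left, and the beta cell list (median -0.04) lies near 0.

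Heat shock genes were higher at day 90. Of 16 genes of the immediate early and isolation stress list, the 4 heat shock genes Hspa1a, Hspa1b, Hspb1 and Dnajb1 rose, none fell, and the median was 0.34. The share of all tested genes that rose was 3.73%. Hspa1b, an inducible HSP70 chaperone, had the largest rise of the named genes. It ran from 2.07 to 127.8 CPM at day 90 (median 16.6), against 1.19, 1.33, 2.41, 2.25 and 2.04 CPM at day 2. Every day 90 mouse but 6RC89 lay above the day 2 range, and the log2 fold change was 4.28 (SE 0.93, edgeR adjusted p = 0.00744). Its neighbour Hspa1a ran from 1.57 to 70.2 CPM at day 90 (median 12.1), against 1.48, 1.45, 1.63, 1.27 and 1.48 CPM at day 2 (log2 fold change 4.11, SE 0.93, edgeR adjusted p = 0.00965). The 2 genes are near-identical copies, so how their shared reads were split is uncertain.

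Dnajb1, the co-chaperone that loads HSP70, ran from 40.3 to 163 CPM at day 90 (median 82.7), against 36.5, 28.2, 40.2, 30.2 and 33.8 CPM at day 2. The lowest day 90 mouse and the highest day 2 mouse all but touched, and the log2 fold change was 1.34 (SE 0.31, edgeR adjusted p = 0.0109). Hspb1, a small heat shock protein, had 1.40 (SE 0.42, edgeR adjusted p = 0.0423), and leaving out any one day 2 mouse ended its call (0.0761 to 0.111), as did leaving out the day 90 mice 6RC44 (0.064), 6RC81 (0.059) or 6RC82 (0.0567). Hsf4, a heat shock factor, ran from 4.26 to 8.59 CPM at day 90 (median 7.82), against 2.92, 2.68, 2.16, 2.44 and 3.52 CPM at day 2, without overlap (log2 fold change 1.36, SE 0.16, edgeR adjusted p = 0.00011). Within mice numbered under 75 and within those numbered 75 or higher edgeR called 0 members of the list, with 6 and 4 higher and 0 and 2 lower at an unadjusted p under 0.05. With the mean stellate level as a covariate it called 1. The immediate early genes Fos, Jun and Egr1 did not pass, with 0.65, 0.24 and 0.03.

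Of 25 genes of ER stress and protein folding, 5 rose and none fell, with a median of 0.17. The share of all tested genes that rose was 3.73%. The 5 were Chac1, Trib3, Atf4, Ddit3 and Herpud1. Atf3 did not pass, nor did the ER chaperones Hspa5, Hsp90b1 and Pdia4, which had 0.23, -0.0043 and 0.31. Chac1, an enzyme that degrades glutathione and a target of ATF4, ran from 43.7 to 92.1 CPM at day 90 (median 59.0), against 32.6, 25.2, 29.2, 28.5 and 32 CPM at day 2. The groups did not overlap, and the log2 fold change was 0.99 (SE 0.14, edgeR adjusted p = 0.000259). Trib3, a pseudokinase that restrains Akt, ran from 12 to 26.2 CPM at day 90 (median 14.7), against 9.44, 8.87, 7.27, 6.87 and 9.64 CPM at day 2 (log2 fold change 0.95, SE 0.20, edgeR adjusted p = 0.00635). Atf4, the transcription factor of the integrated stress response, ran from 296 to 424 CPM at day 90 (median 398), against 275, 269, 274, 247 and 241 CPM at day 2. It rose by 0.55 on the log2 scale (SE 0.09, edgeR adjusted p = 0.00121). Ddit3, which encodes CHOP, had 0.78 (SE 0.16) and Herpud1, a factor of ER-associated degradation, 0.58 (SE 0.12), and none of the 5 overlapped between the days. Nupr1, a stress-induced chromatin protein outside the list, ran from 85.6 to 303 CPM at day 90 (median 138.7), against 63.6, 61.7, 43.9, 52.0 and 71.6 CPM at day 2 (log2 fold change 1.28, SE 0.24, edgeR adjusted p = 0.00299). The count of the ER stress list was 8 without 6RC43, 10 without 6RC41, 6RC42 and 6RC43, and 14 without these 3 and 6RC89. In these fits the share of all tested genes that rose was larger too, at 5.7%, 7.72% and 13.2%. The list's count was 2 within mice numbered under 75, 1 within those numbered 75 or higher and 1 with the mean stellate level as a covariate. Limma voom called 16, beside 15.7% of all genes, so which members pass depends on the method.

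**Figure D3:**
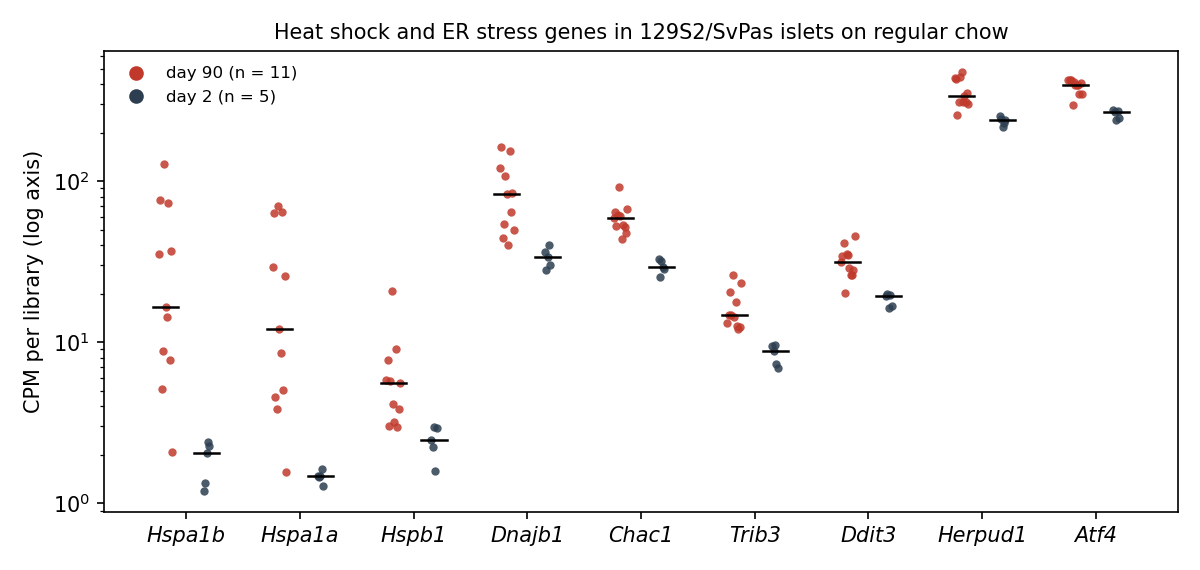
CPM (log axis) of 9 heat shock and ER stress genes in each library, with day 90 (n = 11) left of day 2 (n = 5); each point is 1 mouse. Hspa1b and Hspa1a spread widely among day 90 mice (2.07 to 127.8 and 1.57 to 70.2 CPM), while Chac1, Trib3 and Atf4 form 2 groups that do not overlap.

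Some clock genes were higher at day 90. Of 15, Hlf, Per2, Tef and Per3 rose by edgeR and none fell, while 3.73% of all tested genes rose. Limma voom called 7 higher and 1 lower, beside 15.7% and 15.2% of all genes. Hlf, a transcription factor under clock control, ran from 9.94 to 20.4 CPM at day 90 (median 16.5), against 9.53, 8.27, 7.68, 9.78 and 9.20 CPM at day 2 (log2 fold change 0.77, SE 0.13, edgeR adjusted p = 0.00133), without overlap. Per2 had 0.90 (SE 0.23) and lost its call without 6RC78 (0.0564). Tef had 0.62 and lost it without 6RC4 (0.0757) or 6RC75 (0.0824). Per3 had 0.75 and lost it in 8 of the 16 fits that left out 1 mouse (adjusted p up to 0.1). Within mice numbered 75 or higher Per3 had 0.163 (edgeR adjusted p = 0.689). The list held 2 calls without 6RC4, without 6RC75 or without 6RC78, 2 within mice numbered under 75, and 0 in edgeR within those numbered 75 or higher or with the stellate covariate (4 and 1 higher at an unadjusted p under 0.05). Arntl, Clock and Dbp did not pass, with -0.17, -0.17 and 0.57. The hour at which islets were taken is not in the labels.

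The other genes with the largest rises at a mean of at least 5 CPM are given singly. Barhl1, a homeobox transcription factor of the nervous system, ran from 6.12 to 15.7 CPM at day 90 (median 7.68), against 2.34, 2.37, 1.72, 1.27 and 2.08 CPM at day 2. The lowest day 90 mouse was above the highest day 2 mouse, and the log2 fold change was 2.11 (SE 0.24, edgeR adjusted p = 5.65e-05). Snhg11, a noncoding snoRNA host gene, ran from 25.7 to 52.0 CPM at day 90 (median 43.3), against 11.1, 10.2, 14.6, 12.9 and 7.16 CPM at day 2 (log2 fold change 1.79, SE 0.21, edgeR adjusted p = 6.02e-05). Dock3, a guanine nucleotide exchange factor of neurites, ran from 7.97 to 15.7 CPM at day 90 (median 10.7), against 2.96, 3.47, 3.31, 5.34 and 3.16 CPM at day 2 (log2 fold change 1.59, SE 0.17, edgeR adjusted p = 4.45e-05). None of these overlapped between the days. Rasd2, a Ras-like GTPase of striatum, had 1.56 (SE 0.34), Astn1, an astrotactin of neuronal migration, 1.35 (SE 0.27) and Rbm3, a cold-induced RNA-binding protein, 1.26 (SE 0.27). Kcnf1, a modulatory potassium channel subunit, had 1.28 (SE 0.32) and lost its call without 6RC78 (0.0609), 6RC4 (0.0523) or 6RC75 (0.0554).

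Metabolic lists gave few calls. Of 28 genes of fatty acid oxidation and PPAR targets, 2 fell, among them Acot1, and 5.68% of all tested genes fell. Acot1, a cytosolic acyl-CoA thioesterase, ran from 0.468 to 0.732 CPM at day 90 (median 0.622), against 0.944, 1.04, 1.88, 0.945 and 1.84 CPM at day 2, without overlap (log2 fold change -1.11, SE 0.20, edgeR adjusted p = 0.00189). Fads2, the delta-6 desaturase, ran from 6.45 to 20.4 CPM at day 90 (median 17.7), against 26.5, 25.6, 27.7, 36.5 and 29.4 CPM at day 2, and fell by 0.83 on the log2 scale (SE 0.18, edgeR adjusted p = 0.00635). Fads3, its other called relative in the list of 16 elongases and desaturases, had -0.85 and lost its call without 6RC1 (0.0517), 6RC75 (0.0675) or 6RC78 (0.0918). Elovl2, an elongase of polyunsaturated fatty acids, did not pass (30.4 to 44.5 CPM at day 90 and 35.6 to 44.5 CPM at day 2). Pparg, the nuclear receptor of fat storage, ran from 8.77 to 18.2 CPM at day 90 (median 11.9), against 7.19, 6.91, 6.33, 6.69 and 6.28 CPM at day 2 (log2 fold change 0.86, SE 0.13, edgeR adjusted p = 0.000402).

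Of 18 glycolysis genes, Eno2, the neuronal enolase that islets also express, rose by 0.45 on the log2 scale (SE 0.09, edgeR adjusted p = 0.00636) and none fell. Of 25 exocytosis genes, Sytl4, the granule protein granuphilin, fell by 0.51 (SE 0.12, edgeR adjusted p = 0.0140), with 191 to 424 CPM at day 90 and 404 to 500 CPM at day 2. Syt4 and Cadps, a synaptotagmin and a priming factor, had 0.45 and -0.32, which left 1 member higher and 2 lower, against 3.73% and 5.68% of all tested genes. The call of Syt4 was lost without 6RC1 (0.0529), 6RC4 (0.057) or 6RC78 (0.0573). Without 6RC1, without 6RC4 or without 6RC78 the call of Cadps was lost (0.0825, 0.108 and 0.1), and it was also lost without 6RC75 (0.12) or without the day 90 mice 6RC44 (0.0678), 6RC47 (0.0662) or 6RC41 (0.0579). Among 25 genes of oxidative phosphorylation and 24 of cholesterol synthesis, edgeR called none, and their medians were 0.01 and -0.03. In each list 1 gene had an unadjusted p under 0.05 and DESeq2 called 1, while limma voom called 3 and 5.

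Genes of other cells that an islet preparation can hold were read from their marker lists, and their part in the results above was not tested. No macrophage (14 tested), lymphocyte (11), antigen presentation (14), acinar (26) or Reg gene (6) passed in edgeR or DESeq2. At an unadjusted p under 0.05 there were 0, 0, 1, 1 and 2 genes in these lists, and limma voom called 1, 0, 0, 1 and 1. The summed acinar markers were 1930 to 18900 CPM at day 90 (median 6960) and 3220 to 10100 CPM at day 2 (median 5200), and Cpa1, Cela1, Pnlip and Ctrb1 were present in every library. The lymphocyte list had a median log2 fold change of 0.97, and its sum was 10.8 to 495 CPM at day 90 and 10.5 to 110 CPM at day 2. Without 6RC41, 6RC42 and 6RC43 its median was -0.52. Summed macrophage markers were 128.2 to 971 CPM at day 90 (median 200) and 174 to 405 CPM at day 2 (median 227). The median log2 fold change of the macrophage list was 0.21, but without 6RC41, 6RC42 and 6RC43 it was -0.27, and without these mice and 6RC89 it was -0.85, with 10 of the 14 genes lower. Neither of these 2 lists kept the sign of its median. Of the adipocyte markers, Adipoq was at 0 in 9 of 11 day 90 and 1 of 5 day 2 libraries, and Hbb-b1 of red blood cells was at 0 in all 16. The nerve and glia list had a median of -0.71, and Vip, a neuropeptide, alone passed. It ran from 3.28 to 47.1 CPM at day 90 (median 14.2), against 62.4, 38.7, 79.6, 113.9 and 76.2 CPM at day 2 (log2 fold change -1.95, SE 0.52, edgeR adjusted p = 0.0240), and its call was lost without 6RC4 (0.0535), 6RC75 (0.08) or 6RC78 (0.058).

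Other small lists held 1 or 2 calls each, against 5.68% of all tested genes lower and 3.73% higher. Of 11 duct genes, Sox9 alone fell (log2 fold change -1.07, SE 0.31, edgeR adjusted p = 0.0365), and it did not pass without 6RC78 (0.203), 6RC75 (0.0824), 6RC4 (0.0536) or any one of 5 day 90 mice (0.0507 to 0.0593). Of 21 interferon response genes, Ifit2 and Rtp4 fell, with -0.63 and -0.52. Ifit2 lost its call without 6RC1 (0.0503) or 6RC78 (0.0725), and Rtp4 lost it in 13 of the 16 fits that left out 1 mouse (adjusted p up to 0.113, without 6RC4). Of 15 genes reported to move with senescence and age, Gdf15, a stress cytokine, had 0.70 and Lmnb1, a nuclear lamina protein, had -0.49. The call of Gdf15 was lost in 12 of the 16 fits that left out 1 mouse (adjusted p up to 0.128, without 6RC75), and that of Lmnb1 without 6RC1, 6RC3, 6RC75 or 6RC78 (0.0537 to 0.0777). No sex-linked gene of 5 passed in edgeR or DESeq2, with 1 at an unadjusted p under 0.05 and 2 called by limma voom.

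The time course on chow placed day 10 (5 mice) and day 30 (8 mice) between the ends. All contrasts share the day 2 mice, so their values are given side by side and are not independent. At day 10, 2 genes were higher than at day 2 (0.0132% of 15190) and 1 was lower (0.00658%) by edgeR, with 1082 genes at an unadjusted p under 0.05. They were Trib1, a pseudokinase (log2 fold change 0.48), Ccbl2, an aminotransferase (0.76), and D2Ertd750e (-1.04), named here after their values were seen. Without 6RC1 or without 6RC78 none was called. At day 30, 88 genes were higher (0.579%) and 262 lower (1.72%). Both together were 2.3% of the genes tested, against 1.31% without 6RC1, 1.03% without 6RC78 and 1.5% without 6RC75. The cell cycle list had a median of -0.76 at day 10, -1.29 at day 30 and -1.60 at day 90, with 0, 26 and 33 of 36 members lower. The stellate list had -0.44, -1.03 and -1.68 at these days, with 0, 8 and 17 of 23 members lower.

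Single genes took different paths through these days. Top2a had a median of 31 CPM at day 2, 16.3 at day 10, 9 at day 30 and 7.24 at day 90, and Mki67 had 33.8, 18, 10.6 and 7.75 CPM. Most of the difference of Top2a thus lay between day 2 and day 30. Eln had 32.9 CPM at day 2, 31.5 at day 10, 12.3 at day 30 and 6.55 at day 90. Irx1 had 36, 32.1, 24.4 and 22.3 CPM at these days. Barhl1 had 2.08, 1.88, 3.12 and 7.68 CPM, and Chac1 29.2, 18.7, 26.2 and 59.0 CPM, so that for both the day 30 median lay far nearer to day 2 than to day 90. Hspa1b had 2.04, 1.55, 7.83 and 16.6 CPM, and at day 30 it already spread from 2.07 to 213 CPM.

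**Figure D4:**
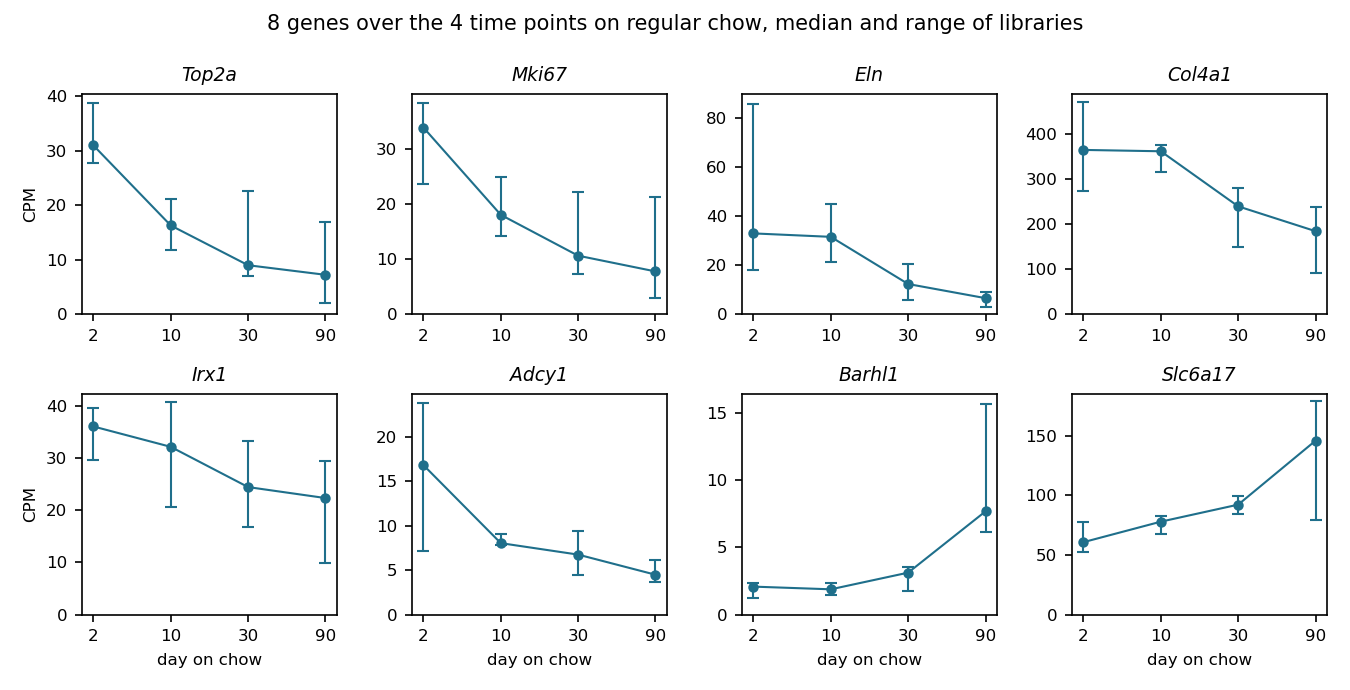
CPM of 8 genes at days 2, 10, 30 and 90 on regular chow (5, 5, 8 and 11 mice); points are medians and bars run from the lowest to the highest library. Top2a and Mki67 are already low at day 30 (9 and 10.6 CPM), while Barhl1 is at 3.12 CPM at day 30 and 7.68 CPM at day 90.

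The 129S2/SvPas mice on HFHS are other animals measured at the same days (10 at day 90 and 8 at day 2, without 2 day 2 libraries whose strain genes did not match their label). The day 90 library 6HF99 was kept, though its GC slope of 0.567 on the log2 scale per 10 GC points lay beyond the bound of 0.5. The 2 insulin genes took 43.6% of its reads. In the HFHS mice 809 genes were higher at day 90 (5.3% of 15262) and 984 lower (6.45%). Of the genes called on chow, 329 higher genes were also higher on HFHS, which is 59.5% of the chow list and 40.7% of the HFHS list. The 469 lower genes that both held were 55.7% and 47.7%. On HFHS all 36 cell cycle genes fell, with a median of -1.64, and 15 of 23 stellate genes fell, with a median of -1.17. Fewer members of the basement membrane list (4) and of the alpha cell list (1) were called lower on HFHS, and for no member of either list did the difference between diets pass.

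The difference between diets was tested itself. The change with time on RC minus that on HFHS passed for 2 genes (0.0131% of 15262), with 851 genes at an unadjusted p under 0.05. Adcy1, the calcium-stimulated adenylate cyclase, ran from 3.64 to 6.19 CPM at day 90 on RC (median 4.48), against 16.8, 7.19, 23.8, 14 and 19.5 CPM at day 2 on RC. The day 90 mice lay below every day 2 mouse, with 6RC3 the nearest (log2 fold change -1.80, SE 0.19, edgeR adjusted p = 4.34e-05). On HFHS it ran from 10.0 to 46.4 CPM at day 90 (median 20) and from 11.2 to 30.6 CPM at day 2 (median 18), with a log2 fold change of 0.19. The difference between the diets was -1.99 on the log2 scale (SE 0.29, edgeR adjusted p = 0.00156). Accn1, an acid-sensing ion channel also called Asic2, had 8.94 to 15.8 CPM at day 90 on RC and 10.2 to 13.3 CPM at day 2 on RC. It overlapped there (log2 fold change 0.12, SE 0.11), whereas on HFHS it had 13.3 to 20.7 CPM at day 90 and 6.03 to 8.83 CPM at day 2 (1.04, SE 0.10). Its difference was -0.93 (SE 0.14, edgeR adjusted p = 0.00183).

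**Figure D5:**
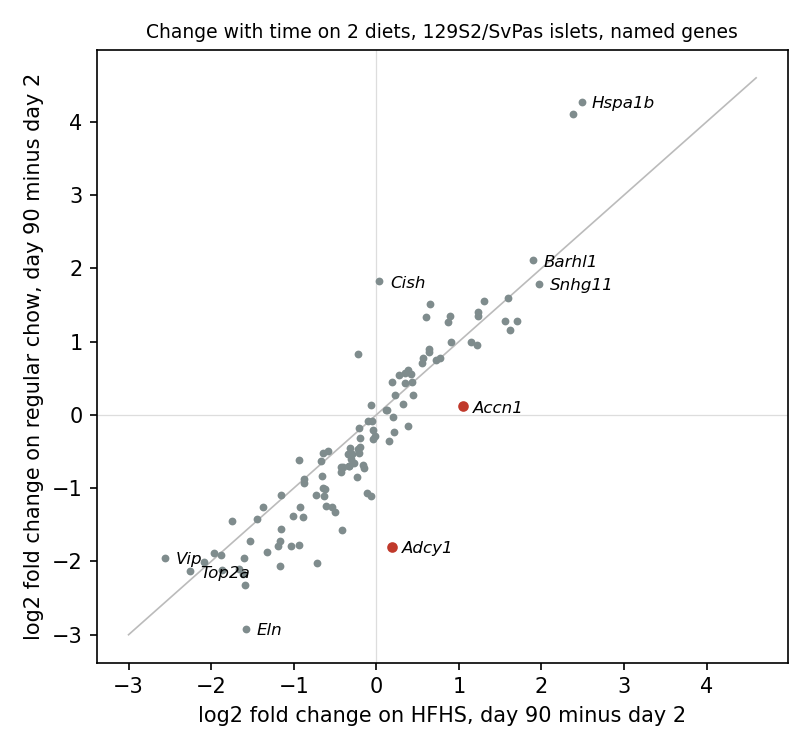
log2 fold change from day 2 to day 90 of the named genes on regular chow (vertical axis) and on HFHS (horizontal axis) in 129S2/SvPas; the line marks equal change, and red points are the 2 genes whose difference passed. Adcy1 lies at -1.80 on chow and 0.19 on HFHS, and Accn1 at 0.12 and 1.04.

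Other strains on RC gave a further comparison, with 5 and 6 mice of C57Bl/6J, 8 and 6 of BALB/cJ and 8 and 5 of AKR/J at day 90 and day 2 (2 C57Bl/6J libraries whose strain genes did not match their label were left out). The change with time in 129S2/SvPas minus the mean change of these 3 strains passed for 554 of 15625 genes (3.55%), 190 of them higher and 364 lower. Leaving out 1 mouse of the groups of 5 gave 244 genes (without 6RC78) to 683, with 293 without 6RC1, 319 without 6RC4 and 359 without 6RC75. In the cell cycle list 17 of 36 members passed (47.2%), all with a larger fall in 129S2/SvPas. The list's median change was -1.60 in 129S2/SvPas, -0.45 in C57Bl/6J, -1.56 in BALB/cJ and -0.28 in AKR/J. Against C57Bl/6J and AKR/J alone 24 members passed (66.7%), beside 3.07% of all genes. The difference from BALB/cJ alone was not tested. Top2a had log2 fold changes of -0.67, -2.10 and -0.15 in C57Bl/6J, BALB/cJ and AKR/J, and its difference from their mean was -1.16 (SE 0.33, edgeR adjusted p = 0.0379).

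In the stellate list 7 of 23 members differed from the mean of the 3 strains, 6 of them lower in 129S2/SvPas, but 1 did so against C57Bl/6J and AKR/J alone. The median change of that list was 0.07 in BALB/cJ, and -1.11 in both C57Bl/6J and AKR/J. Eln differed by -1.59 (SE 0.34, edgeR adjusted p = 0.00503) and Hlf by 0.83 (SE 0.17, edgeR adjusted p = 0.00343). For Barhl1, Chac1 and Sparc the differences of -0.10 (SE 0.34), -0.26 (SE 0.30) and -0.33 (SE 0.16) did not pass. Barhl1 rose by 1.93, 3.02 and 1.70 on the log2 scale in C57Bl/6J, BALB/cJ and AKR/J.

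Of the 12 genes with the smallest p for the difference between strains, 10 kept their call against C57Bl/6J and AKR/J alone. Tcf19 fell more in 129S2/SvPas, with a difference of -1.05 (SE 0.15, edgeR adjusted p = 1.89e-05). Ncapg2, a subunit of condensin II, ran from 3.05 to 8.77 CPM at day 90 (median 6.70), against 14, 11.7, 16.4, 15.5 and 17.8 CPM at day 2 in 129S2/SvPas, without overlap. Its difference was -0.99 (SE 0.14, edgeR adjusted p = 2.35e-05). Slc6a17, a vesicular transporter of neutral amino acids, ran from 79.3 to 179 CPM at day 90, against 60.8, 55.0, 63.1, 77.3 and 52.8 CPM at day 2. It rose by 1.16 (SE 0.15, edgeR adjusted p = 0.000143), and its difference from the 3 strains was 0.83 (SE 0.12). The other differences were 0.44 for Rdh13, a mitochondrial retinol dehydrogenase, -0.55 for Specc1, -0.75 for Zbtb7c, -1.18 for Ugt8a, -0.37 for Osbpl1a, -0.84 for Csgalnact1 and -0.86 for Cntnap2. The last 3 did not pass within 129S2/SvPas, where they had -0.18, -0.35 and -0.09, and Cntnap2 had 0.34, 0.92 and 1.08 in C57Bl/6J, BALB/cJ and AKR/J. For Scand1 and Nptxr the difference rested on BALB/cJ, whose 6 day 2 libraries had 0.0855 to 0.789 CPM of Scand1 and 0 to 0.0428 CPM of Nptxr, against 32.1 to 47.9 and 4.37 to 9.18 CPM in its 8 day 90 libraries. Against C57Bl/6J and AKR/J alone the differences were 0.18 and -0.36 and did not pass (edgeR adjusted p = 0.619 and 0.566).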

How the data were processed

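RNA of at least 150 islets per mouse was taken up in lysis buffer, and 200 ng of total RNA went into poly-A selected, unstranded TruSeq libraries, per the labels' protocols. The counts are the authors' deposited table of raw counts per gene. TopHat 1.3.3, SAMtools 0.1.16, HTSeq 0.5.3p3, edgeR and the mouse build mm9 are named in the submitters' processing notes, with no settings given in the sources used here. A second table, deposited by the authors, holds normalized log2 values and served as an alternative only. Both tables were mapped to mice by the mouse ID, and 0 other columns were left unused.

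CPM are counts scaled to a common total of reads assigned to genes in each library, with no correction for gene length, so a gene is compared between libraries and never with another gene. Fold changes are day 90 minus day 2 on the log2 scale, from the edgeR fit to TMM-scaled counts at its default prior count. Their SEs follow from the F statistic. A prior count of 2 applied only to log2 CPM values, such as those behind the principal components and the covariates. Genes were kept by edgeR's default expression filter and tested with edgeR 4.0.16 (R 4.3.3; quasi-likelihood F test, robust; Benjamini-Hochberg adjustment over all genes tested, threshold 0.05), with only the groups of each comparison in the fit. The difference between diets and that between strains were interaction terms. The tests were run on simulated counts first.

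The comparison, its members and the 32 gene lists were chosen with earlier results of these data known. Named genes are the 15 largest rises and 15 largest falls past the threshold at a mean of at least 5 CPM, up to 6 genes called in each list, genes of the diet difference, the 12 smallest p of the strain difference, and a fixed set of islet and cell cycle genes. Genes named beyond these (list members that did not pass, and those said to be so) were chosen after their values were seen. A few genes that this rule names are not reported here. Alternatives were DESeq2 1.42.0 and its size factors, limma 3.58.1 (voom and the authors' table), no filter, other estimates of the spread, a GC offset, covariates, subsets by mouse number and leaving out each mouse. Promoters came from RefSeq (GRCm38.p6) by gene symbol. The labels do not say whether equal mouse numbers pair the diets. Of 10 same-numbered pairs, 3 had a correlation of deviations over 0.1 (median -0.0296). These were numbers 46, 47 and 48 of day 90 (0.149, 0.257 and 0.453), so a pairing of some mice is not settled. No replicate libraries looked like copies, with a chi-square per degree of freedom of at least 11.1 over 65 pairs. Depth was 20494752 to 31901929 assigned reads, and 3 counts, the least read as present, are a small fraction of 1 CPM.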

Additional observations from a re-analysis of the deposited data

Results flagged for a closer look

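Among the 5 day 2 mice, a single mouse stood far from the other 4 in 6 of the named genes (5.36%), and chance alone flags about 1 in 20. These were Accn1 at 13.3 CPM and Ckap2l at 5.52 CPM in 6RC78, Dock3 at 5.34 CPM in 6RC75, Gdf15 at 1.07 CPM in 6RC3, and Nnat at 30.1 CPM and Ppy at 1900 CPM in 6RC4.

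The change with time differed between RC and HFHS for Adcy1 (-1.99 on the log2 scale) and Accn1 (-0.93). It differed between 129S2/SvPas and the mean of the other 3 strains for Slc6a17 (0.83) and Rdh13 (0.44), which rose more in 129S2/SvPas. Negative differences were those of Tcf19 (-1.05), Ncapg2 (-0.99), Ugt8a (-1.18), Zbtb7c (-0.75), Specc1 (-0.55), Cntnap2 (-0.86), Csgalnact1 (-0.84) and Osbpl1a (-0.37). Scand1 (-2.11) and Nptxr (-3.19) were flagged by the same test, and both calls ended without BALB/cJ.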

How the results depend on the processing

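Under the alternatives tried, 1395 genes called between the days became 4577 with limma voom, 449 within mice numbered under 75, 174 within those numbered 75 or higher, and 750 to 1956 with 1 mouse left out. Of the alternatives chosen after seeing the data, leaving out 6RC41, 6RC42 and 6RC43 gave 2391 genes, leaving out 6RC89 as well gave 3818, and the mean stellate level as a covariate gave 167. Summed stellate markers were 365 to 1380 CPM at day 90 and 818 to 2650 CPM at day 2. The covariate thus cannot be separated from the day, and for members of the stellate list it takes up part of their own change. Genes higher at day 90, 3.73% of those tested, became 15.7% with voom, 1.43% with all 8 mice labelled day 2, 1.2% and 0.154% in the lower and higher numbered mice, 7.72% and 13.2% without the 3 and the 4 day 90 mice, 0.383% with the stellate covariate and 1.68% to 5.7% with 1 mouse left out. Genes lower at day 90 (5.68%) became 15.2% with voom, 8.13% with the spread of all 129S2/SvPas groups, 1.83% and 1.01% by mouse number, 13% without the 4 mice, 0.72% with the stellate covariate and 3.35% to 7.55% with 1 mouse left out. The share of higher calls was 50.8% with voom, 29.2% in the authors' table, 15.5% with all 8 mice, 13.2% in the higher numbered mice and 50.2% without the 4 mice, against 39.6%. Other settings gave 1293 to 2081 genes. Of the 1338 with all 8 mice, 538 were shared with the reported calls, 1 of them in the opposite direction. No library of this comparison or of the strain comparison passed the bound on GC dependence, so leaving such libraries out gave no separate value there.

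The diet difference (2 genes) stayed at 2 to 2 with 1 day 2 mouse left out. It was 2 as well without 6HF99, the 1 library of that comparison beyond the bound on GC dependence. It gave 0 genes with the 5 strain-mismatched libraries added and 0 with a replicate block by mouse number in the 20 libraries with a partner. The same 20 libraries gave 0 without the block too, and the labels do not say whether the numbers pair the mice. The strain difference (554) gave 5010 genes, 1174 higher and 3836 lower, with mismatched libraries added, and 244 to 683 with 1 mouse left out (64 to 280 higher, 180 to 415 lower). Day 10 gave 868 genes with all 8 mice and 0 to 4 with 1 day 2 mouse left out. Day 30 gave 13.4% of the genes tested with all 8 mice and 1.03% to 2.03% with 1 day 2 mouse left out.

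Of 3267 values of named genes under alternatives, 2837 kept direction and side of the threshold, 390 fell below it, 12 passed it and 28 changed sign. With all 8 mice, log2 fold changes of opposite sign were -0.446 for Bmi1, 0.121 for Fgfr1, -0.46 for Iapp, 0.598 for Ins2, -0.256 for Kcnq1ot1, 0.439 for Ppy, 0.164 for Sst and -0.378 for Syt4. With the stellate covariate they were 0.234 for Col1a1, 0.0664 for Col3a1, 0.157 for Igf1, -0.0927 for Mafa, 0.0196 for Mylk, 0.787 for Pdgfra and -0.0564 for Ucn3. By mouse number they were -0.252 for Igf2, 0.369 for Ins2 and -0.116 for Mafa at 75 or higher, and -0.111 for Ins1 and 0.0208 for Ppy under 75. Ins1 had -0.0775 with voom, -0.0118 and -0.048 without the 3 and the 4 day 90 mice and -0.0279 without 6RC43, which also gave -0.0145 for Ucn3. With 1 mouse left out at a time, Ins1 ranged from -0.0279 to 0.162, Ins2 from -0.112 to 0.08 and Ucn3 from -0.0145 to 0.137. Ins2 had 0.00825 without 6RC1, 0.08 without 6RC3 and 0.00219 without 6RC44. Against C57Bl/6J and AKR/J alone, Scand1 had 0.179. The causes were not tested. The day 2 group rests on 5 mice, of which 6RC75 and 6RC78 carried the most matrix RNA, and no limit of detection was computed.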
